A study of Mus musculus with 141 samples.

Results

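Livers of Collaborative Cross (CC) mice were ordered by how strongly they transcribed Cyp4a14 and Cyp4a10, a pair of neighbouring cytochrome P450 genes, and the 16 livers with the highest level were compared with the 16 with the lowest, out of 47 livers among 141 libraries of liver, lung and kidney. The CC is a panel of recombinant inbred strains bred from classical and wild-derived founders. Each library came from 1 male mouse of 8 to 12 weeks, 1 mouse per strain, fed an NTP 2000 wafer diet under a 12 h light cycle and kept in mesh chambers with clean air for 6 hours a day on weekdays over 2 weeks before nembutal anaesthesia. The labels name no PPAR-alpha agonist and no fast, the high and low groups share every one of these conditions, food was freely available, and the hour of collection and feeding state at collection are not given in the sources used here. The score of a liver was the mean of log2(CPM + 1) over both genes, with CPM the expected count on the usual scale of library size, the ribosomal RNA gene Rn45s left out of the library total. It stands as a proxy of PPAR-alpha activity. The livers were chosen by these measured levels, read from the same libraries that are compared, so the levels of the scoring genes in liver describe the selection and are not results.

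PPAR-alpha is a nuclear receptor that binds fatty acids, pairs with RXR and switches on genes for fatty acid uptake, activation, transport into mitochondria and oxidation in mitochondria and peroxisomes. In liver it is most active in fasting, when fatty acids arrive from fat tissue and are burned or turned into ketone bodies. Cyp4a14 and Cyp4a10 encode fatty acid omega-hydroxylases and are among the genes that respond most steeply to PPAR-alpha agonists in rodent liver. Whole tissue was measured, so fewer cells of a type and less RNA per cell cannot be told apart.

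The score of the high group was 7.78 ± 1.48 (SD, n = 16) and that of the low group 2.53 ± 0.64 (SD, n = 16), a gap of 5.25 log2 units. Cyp4a14 spanned 24.4 to 2536 CPM in the high group and 0.110 to 5.71 CPM in the low group. Cyp4a10 spanned 61.0 to 1051 CPM in the high group and 4.18 to 54.0 CPM in the low group. CC015 headed the order with a score of 10.66, followed by CC055 with 10.10 and CC030 with 9.38. At the upper boundary CC059 was inside with 5.83 and CC017 just outside with 5.79. At the lower boundary CC032 was inside with 3.58 and CC040 just outside with 3.63. The score therefore has no gap at either boundary. Cyp4a14 alone steps down at the lower one, from 7.80 CPM in CC040 to 1.62 CPM in CC032, while Cyp4a10 steps up from 16.4 to 54.0 CPM. In 3 low livers, CC012, CC042 and CC049, Cyp4a14 rested on at most 3 counts. The genes did not always go together: CC012 had 1 count of Cyp4a14 beside 42.1 CPM of Cyp4a10, and CC061 entered the high group with 24.4 CPM of Cyp4a14 beside 166 CPM of Cyp4a10.

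**Figure D1:**
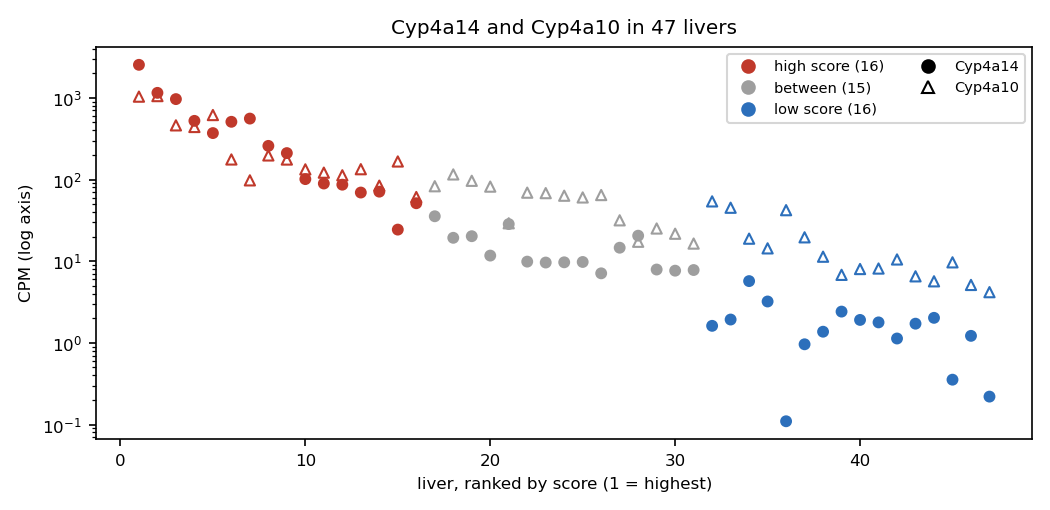
CPM on a log axis of Cyp4a14 (filled circles) and Cyp4a10 (open triangles) in each of 47 livers, ordered by score from rank 1, with the 16 high livers in red, the 15 between in grey and the 16 low in blue. Cyp4a14 spans 2536 CPM in CC015 to 0.110 CPM in CC012, a wider span than that of Cyp4a10, and lies below Cyp4a10 in every low liver.

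Both scoring genes lie on chromosome 4 of NCBIM37, Cyp4a14 at chr4:115158805-115168747 on the minus strand and Cyp4a10 at chr4:115190869-115206254 on the plus strand, in a cluster with Cyp4a12a, Cyp4a12b, Cyp4a31 and Cyp4a32. No stretch of 50 bases, the read length, in an annotated Cyp4a14 transcript occurs in a transcript of the other Cyp4a genes compared. Of the 50-base stretches of Cyp4a10, 23.9% occur in Cyp4a32 and 14.7% in Cyp4a31, and Cyp4a12a shares 48.9% of its stretches with Cyp4a12b. The submitters quantified uniquely aligned reads, so the levels of Cyp4a10, Cyp4a32, Cyp4a12a and Cyp4a12b are less certain than that of Cyp4a14.

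The libraries held 1341632 to 38738025 counts in liver, 2006015 to 14217228 in kidney and 2320936 to 17025147 in lung. High livers had a median of 5807000 counts and low livers 7023000 (permutation test of mean log2 total, two-sided, p = 0.0670). Counts assigned to Lars2, the mitochondrial leucyl-tRNA synthetase gene, made up 13.5 ± 11.6% of high and 22.5 ± 16.6% of low livers (SD, n = 16 each). The permutation p was 0.0861, and 0.115 adjusted over 4 library measures. Lars2 stayed in the library total of the score. Rn45s, left out of that total, took 0.32% (CC021) to 69.0% (CC033) of all liver counts. Whether the counts of Lars2 came from its own mRNA or from other RNA was not tested. Hepatocyte markers (Alb, Apoa1, Ttr, Cps1, Hnf4a) summed to 51670 to 127200 CPM in high and 37240 to 128600 CPM in low livers. The 6 markers of sinusoidal endothelium summed to a median of 477.9 CPM (348.6 to 644.6) in high and 370.7 CPM (230.8 to 532.5) in low livers, the marker group among 12 with the smallest p (permutation p = 0.00022, adjusted over 12 groups 0.00264), and none of the 6 was at 0. Of these 6 markers, 3 had a positive log2 difference (Stab2, Kdr and Clec4g, each at an unadjusted limma p under 0.05), and the others did not. The median member had a log2 difference of 0.01. Stab2, a scavenger receptor of these cells, had the smallest p of the 6 (log2 difference 0.49, SE 0.14, limma p = 0.00122, q = 0.423). Their part in the differences below was not tested.

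Between the high and low livers, no gene passed a false discovery rate of 0.1. Of 10189 genes tested with limma-voom, the scoring genes left out, 0 were called (0% called), and the lowest q was 0.222. At an unadjusted p under 0.05, 446 genes (4.38%) were higher and 326 (3.2%) lower in high livers (772 in all, 7.58%). The same comparison by edgeR called 0 genes and by DESeq2 37, of which 25 were higher and 12 lower. Counts were also simulated for 10087 genes with the spread of these libraries. Of genes with a fold of 1.5, 55.1% were called, and of those with a fold of 2, 70%. The same run held 50 genes with a fold of 4, which ease the q cutoff for the others. These rates can therefore be higher than in the real comparison, where 0 genes were called. Single changes of that size can escape it.

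Ppara itself did not pass the test. Its TMM-scaled CPM, the scale of all levels below, ran from 1.01 over a median of 5.07 to 8.54 in high livers and from 2.81 over 4.60 to 8.38 in low livers, with a log2 difference of 0.01 (SE 0.19, limma p = 0.970, q = 0.995). Over 19 listed receptors and cofactors tested, the median log2 difference was -0.02, beside 0.01 for all genes tested. Unadjusted p was under 0.05 for 2 higher members, the hepatocyte factor Hnf4a and the coactivator Ncoa2, and for 1 lower member, the partner receptor Rxra. None of the other Cyp4a genes tested passed. Cyp4a12a, the male-typical hydroxylase, had a median of 269 in high and 255 in low livers (log2 difference 0.18, SE 0.28, p = 0.518). Cyp4a12b had medians of 38.5 and 55.7, and Cyp4a32 of 17.4 and 31.3, with log2 differences of -0.43 (SE 0.48) and -0.14 (SE 0.38). Cyp4a31 had medians of 0.337 and 0, Cyp4a29 was at 0 in each high liver and Cyp4a30b had a median of 0 there, all 3 below the level tested. Among 10 tested Cyp4 genes outside the scoring pair, 5 had a positive difference.

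Genes of fatty acid oxidation sat mostly on the positive side by small amounts. Of 27 genes listed for mitochondrial oxidation, 25 were tested, 22 had a positive log2 difference (51.5% of all genes did), and the median was 0.16 beside 0.01 over all genes. Unadjusted p was under 0.05 for 7 of them, each higher, where 4.38% of all genes were. The 10 acyl-CoA thioesterases tested had a median of 0.22 with 9 positive, the 42 peroxisomal genes 0.08 with 29 positive, and the 40 tested genes of lipid droplets, uptake and further PPAR-alpha targets 0.15 with 30 positive. Ketone body genes had a median of 0.01 over 7. Without TMM, on library totals alone, the median over all genes moved to 0.14, so list medians of this size are read only against that of all genes.

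**Figure D2:**
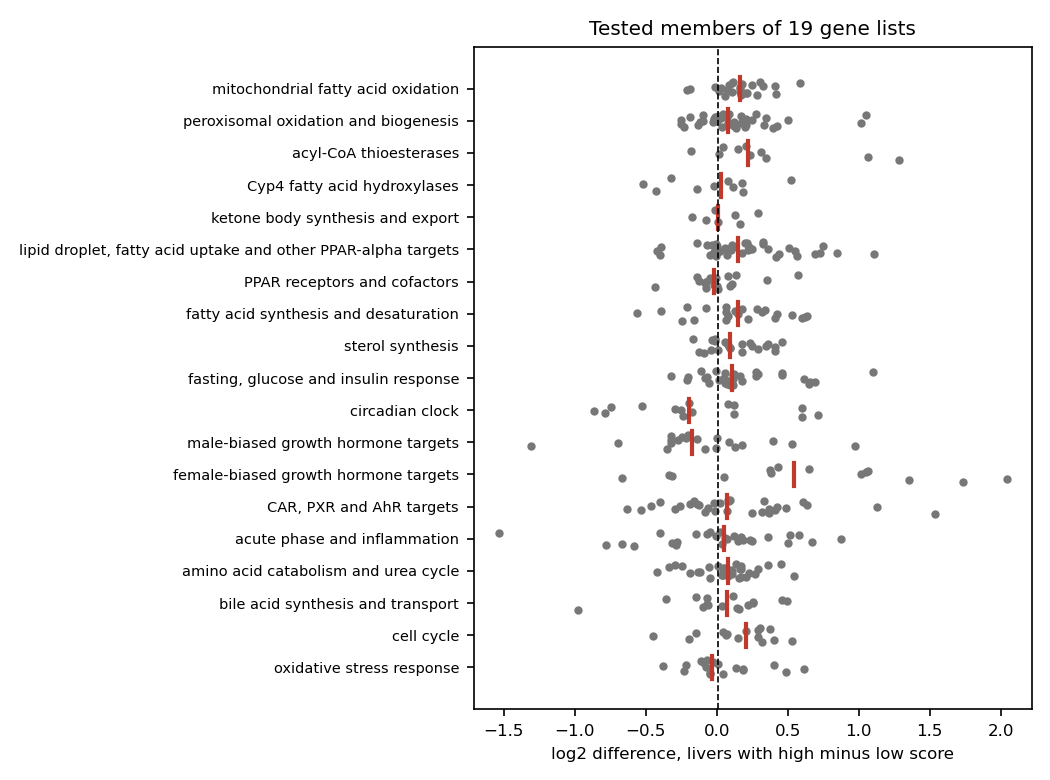
Each grey point is the log2 difference, high minus low livers, of 1 tested member of 1 of 19 gene lists, the red bar is the median of the list and the dashed line the median of all 10189 genes tested. The bar of mitochondrial oxidation lies at 0.16 and that of the circadian clock at -0.19, and the members of most lists lie on both sides of the line.

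Fitting the score as a number over all 47 livers, an alternative to the groups, called 74 of 10149 genes (0.729%), 54 higher with the score (0.532%) and 20 lower (0.197%). Slopes below are log2 change per unit of score. The call rests heavily on the top of the order. Without CC015, 3 genes were called, Tmtc2, Acot1 and Csrp2, while without CC055 there were 22, without CC021 29, and between 51 and 103 without any other single liver. All 74 kept their direction and an unadjusted p under 0.05 without CC015, and 70 of them had an unadjusted p under 0.05 between the groups. Both retests use livers that had picked the 74 and a looser cutoff, so these counts describe the calls and lend them no support. With the rank of the score in place of its value 11 genes were called, each among the 74. On library totals without TMM the split was 308 higher and 3 lower in place of 54 and 20, so the lower calls depend on the scaling. Of the mitochondrial oxidation list 6 of 25 rose with the score, of the peroxisomal list 2 of 42, of the thioesterases 1 of 10 and of the lipid droplet and target list 2 of 40, and none of these lists had a member that fell. At an unadjusted p under 0.05, 15 of the 25 mitochondrial genes had a positive slope (6.4% of all genes did), and 12 without CC015.

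Slc22a5, the plasma membrane carnitine carrier, ran from 14.2 over a median of 29.3 to 89.5 in high livers and from 19.3 over 22.97 to 34.98 in low livers. The ranges overlapped, with 4 high livers above every low one. Its slope was 0.12 (SE 0.03, limma q = 0.0487) and its log2 difference between groups 0.42 (SE 0.20, p = 0.0387). Crat, carnitine acetyltransferase, ran from 15.9 over 35.99 to 62.96 in high and from 14.2 over 22.6 to 40.4 in low livers. In 14 of 16 high livers it exceeded the low median, and the difference was 0.59 (SE 0.17, p = 0.00114, q = 0.423). Its slope of 0.12 (SE 0.03) had q = 0.0206, with 0.00265 to 0.0934 over 11 alternatives. Without CC015 the slope was 0.13 and q 0.113. Slc25a20, the carnitine-acylcarnitine carrier of the inner mitochondrial membrane at chr9:108564429-108586972 of NCBIM37, ran from 71.6 over 108 to 191 in high and from 65.8 over 89.8 to 109 in low livers. The slope was 0.07 (SE 0.02, q = 0.0553). Cpt1a, the gate of mitochondrial entry, had nearly the same median in both groups, 573 and 552, and a log2 difference of 0.06 (SE 0.11, p = 0.602). Of these 4 carnitine shuttle genes Crat had the largest difference between the groups and Cpt1a the smallest, and the differences among the 4 were not tested.

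**Figure D3:**
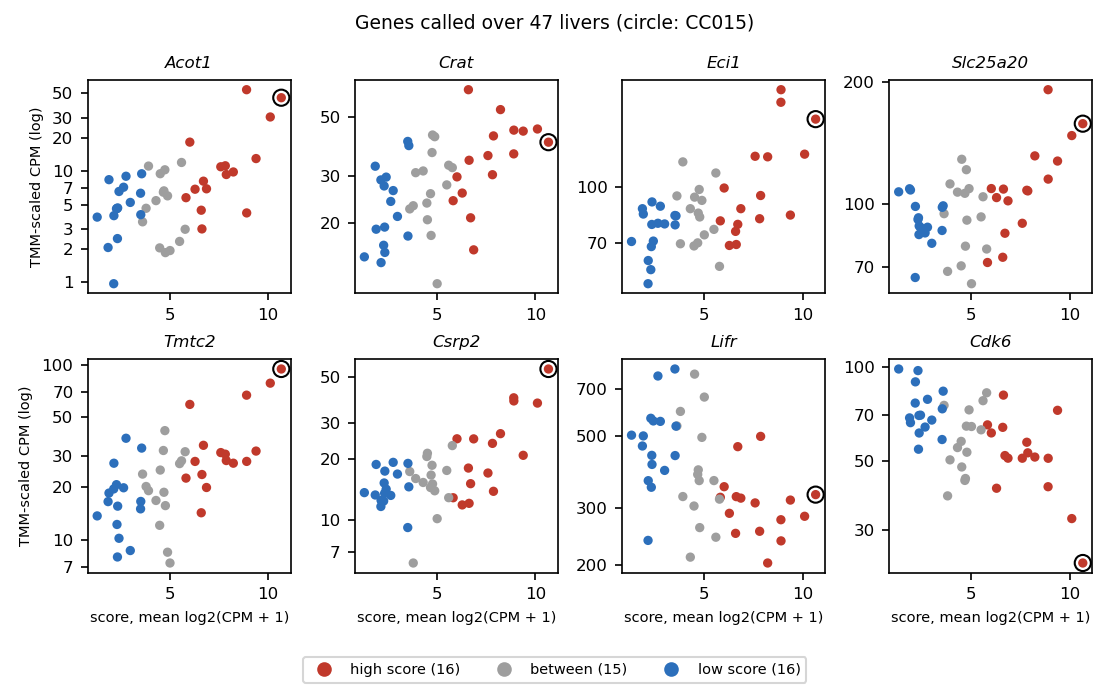
TMM-scaled CPM on a log axis against the score for 8 genes called over 47 livers, each point 1 liver, with high livers in red, livers between in grey, low livers in blue and a circle around CC015. CC015 has the highest Tmtc2 (94.4) and Csrp2 (54.9) and the lowest Cdk6 (23.6) of all livers, and red and blue points overlap in every panel.

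Inside the mitochondrion, Eci1, the enoyl-CoA isomerase for unsaturated fatty acids, ran from 68.9 over 90.7 to 185 in high and from 54.1 over 78.8 to 90.8 in low livers. In 8 high livers it lay above every low liver. It rose with the score by 0.09 per unit (SE 0.02, q = 0.00792), and by 0.08 without CC015 (q = 0.113). Decr1, the dienoyl-CoA reductase, had medians of 198 and 171 and a slope of 0.07 (SE 0.02, q = 0.0872), and Acadvl, the very long chain acyl-CoA dehydrogenase, medians of 466 and 415 and a slope of 0.05 (SE 0.015, q = 0.0986). Without CC015 the slopes were 0.06 for Decr1 and 0.05 for Acadvl, and neither passed (q = 0.268 and 0.239). With its q close to 0.1, Acadvl also lost the call without many other single livers, and kept it without others. Hadha, a subunit of the trifunctional protein, had an unadjusted p of 0.0264 and a difference of 0.16 (SE 0.07). Acadm, the medium chain dehydrogenase, had a median of 327 in both groups and a difference of 0.11 (SE 0.09, p = 0.250).

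Acot1, a cytosolic acyl-CoA thioesterase that releases free fatty acids, had the steepest slope among the 11 called genes of the oxidation, thioesterase and lipid target lists. It ran from 3.03 over a median of 9.59 to 54.1 in high livers and from 0.974 over 4.65 to 9.48 in low livers, and 8 high livers lay above every low one. The difference was 2.43-fold (log2 1.28, SE 0.35, p = 0.000766, q = 0.391 between groups, with q from 0.00784 to 0.797 over the alternatives). The slope was 0.32 (SE 0.05, q = 0.000918) and stayed called without any single liver, with the highest q at 0.0483. Of the 50-base stretches of Acot1, 34.8% occur in its neighbour Acot2, so its level is uncertain where reads could not be told apart. Acot2 had medians of 3.98 and 2.67 and a difference of 0.34 (SE 0.24, p = 0.156).

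Of the peroxisomal genes, 2 rose with the score. Hacl1, which removes a carbon from branched fatty acids, ran from 233 over 332 to 595 in high and from 114 over 269 to 463 in low livers. Its slope was 0.10 (SE 0.03, q = 0.0857). Acaa1b, a peroxisomal thiolase, ran from 124 over 332 to 739 in high livers and from 186 over 238 to 342 in low livers, and its slope was 0.11 (SE 0.03, q = 0.0887). Acaa1b shares 35.6% of its 50-base stretches with Acaa1a, whose difference was 0.12 (SE 0.11, p = 0.274). Ehhadh, the bifunctional enzyme, had medians of 369 and 357 and a difference of 0.20 (SE 0.19, p = 0.289). Its highest value among all 47 livers, 919, was in a high liver.

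Fitm2, a protein of the endoplasmic reticulum that partitions fat into droplets, had medians of 29.3 and 23.6 and a slope of 0.11 (SE 0.02, q = 0.0198). Plin2, the main droplet coat protein, had a difference of 0.42 (SE 0.17, p = 0.0206), and its highest liver was CC015 with 825. Aldh3a2, the fatty aldehyde dehydrogenase, had medians of 1.997 and 1.491 and a slope of 0.14 (SE 0.03, q = 0.0592). The desaturases Fads1 and Fads2 make polyunsaturated fatty acids. Fads1 ran from 324 over 509 to 713 in high and from 281 over 438 to 554 in low livers, with a slope of 0.06 (SE 0.01, q = 0.0594). Fads2 had medians of 366 and 291 and a slope of 0.07 (SE 0.02, q = 0.0887). Fabp1, the abundant fatty acid binding protein, had medians of 3550 and 4029 and a difference of -0.05 (SE 0.14, p = 0.732), which turns to 0.13 on library totals. Among 23 tested genes of fatty acid synthesis the median difference was 0.15 (0.01 over all genes) with 5 at an unadjusted p under 0.05, each higher (4.38% of all genes), and Fasn, fatty acid synthase, was at 0.06 (SE 0.29, p = 0.824). Among 22 tested sterol synthesis genes the median was 0.09 with 5 at that p, each higher, but over 47 livers their median slope was -0.01 with 10 of 22 positive.

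The promoters were searched for the sequence that PPAR-alpha with RXR prefers, a direct repeat of AGGTCA with any 1 base between the copies, on both strands of the RefSeq promoters of GRCm38.p6, each 300 bases. An exact copy was in 0.0444% and a copy with up to 1 mismatch in 0.544% of 27025 promoters. Of the 58 genes called over the score that have a promoter in that table, 0 held a copy with up to 1 mismatch. Copies with up to 2 mismatches, a search outside the plan, were in 3 of 58 (5.17%) and in 3.82% of all promoters. By list, whether called or not, they were in 8 of 42 promoters of lipid droplet and target genes (19.05%), 3 of 22 of mitochondrial oxidation (13.64%), 2 of 13 of thioesterases (15.38%) and 1 of 32 of peroxisomal genes (3.125%). Slc25a20 was the only oxidation gene among the 3 called genes, and its copy begins at base 7 after the start site. The 29 bases of chr9:108662134-108662162 on the plus strand are shown with the 13 letters of the copy in capitals. Of these letters 2 differ from the repeat. Cyp4a14, Cyp4a10, Crat and Decr1 have no entry in the table.
Slc25a20: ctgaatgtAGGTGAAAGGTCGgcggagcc

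Outside lipid metabolism, Tmtc2, an endoplasmic reticulum mannosyltransferase, had the smallest p over the score. It ran from 14.2 over a median of 29.5 to 94.4 in high livers and from 7.96 over 16.5 to 37.9 in low livers. In 15 of 16 high livers it exceeded the low median, and the groups differed 2.10-fold (log2 1.07, SE 0.24, p = 0.000113, q = 0.222). Its slope of 0.23 (SE 0.04) had q = 0.000918, and 0.0483 without CC015. Csrp2, a LIM domain protein, ran from 11.9 over 22.3 to 54.9 in high and from 9.22 over 13.9 to 19.2 in low livers, with 9 high livers above every low one and a slope of 0.14 (SE 0.02, q = 0.000918). Nnmt, which methylates nicotinamide, ran from 1.15 over 8.65 to 39.6 in high and from 0.140 over 2.05 to 13.7 in low livers, and its slope was 0.45 (SE 0.08, q = 0.00504, 0.113 without CC015). Lifr, the receptor of leukaemia inhibitory factor, had the smallest p between the groups. Its level ran from 202 over 314 to 499 in high and from 238 over 483 to 806 in low livers. Only 1 high liver exceeded the low median, and the difference was -0.63 (SE 0.13, p = 3.54e-05, q = 0.222, with q from 0.00333 to 0.497 over the alternatives). Cdk6, a G1 kinase, ran from 23.6 over 51.7 to 81.1 in high and from 54.5 over 69.9 to 98.2 in low livers. It lay below every low liver in 10 high livers, and its slope was -0.10 (SE 0.02, q = 0.00594, 0.113 without CC015).

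By rank alone, the genes most like the score over 47 livers, among 7053 tested genes with a mean of at least 5 CPM, were Pcif1 (Spearman rho 0.57), Tmtc2 (0.57), Wars2 (0.57), Crat (0.56), Helb (0.55), Btd (0.55), Psmd9 (0.52), B930025P03Rik (0.51), Rpl41 (0.51) and Epha2 (0.51). Those most opposed were Pik3r1 (-0.56), Ccng1 (-0.56), Lifr (-0.53), Eif2ak2 (-0.52) and Cdk6 (-0.51). Crat was the only gene of the fatty acid oxidation lists among these 15. These values describe libraries that share their depth and scaling with the score. Against the score, the share of Lars2 had a rho of -0.31 and the log2 library total -0.16 over the same 47 livers.

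The liver clock couples a loop of activators (Arntl, Clock) and repressors (Per, Cry, Nr1d1) to output factors such as Dbp and Nfil3, which bind the same sites with opposite effect and peak at opposite times of day. Of 15 clock genes tested, 2 rose and 2 fell with the score, where 0.532% of all genes rose and 0.197% fell. The median difference between the groups was -0.19 beside 0.01 for all genes, and 0.01 with 23 livers against 23. Cry1 ran from 6.86 over 10.6 to 57.7 in high livers and from 3.21 over 7.71 to 12.5 in low livers, with a slope of 0.16 (SE 0.03, q = 0.00594). Nfil3 ran from 7.54 over 15.6 to 68.6 in high and from 6.26 over 10.6 to 21.0 in low livers, with a slope of 0.15 (SE 0.03, q = 0.0166). The highest liver for both was CC015. Dbp ran from 3.58 over 27.3 to 49.8 in high and from 24.2 over 42.0 to 76.2 in low livers, and 6 high livers lay below every low one. Its slope was -0.17 (SE 0.04, q = 0.0553). Nr1d1 ran from 2.77 over 51.4 to 82.3 in high and from 28.9 over 60.3 to 102 in low livers, with a slope of -0.18 (SE 0.04, q = 0.0553). CC015 had the lowest Dbp and the lowest Nr1d1 of all 47 livers. Without it the slopes were 0.11 for Cry1, 0.10 for Nfil3, -0.13 for Dbp and -0.12 for Nr1d1, none of them called (q from 0.135 to 0.280). Arntl, at a median of 1.07 in high and 0.632 in low livers, had a difference of 0.60 (SE 0.49, p = 0.226). With the level of Arntl as a covariate 57 genes were called over the score in place of 74. The medians of Arntl are near the floor of the shallower livers, where 3 counts were 1.43 CPM in CC039 and 0.66 CPM in CC049. Arntl is therefore an imprecise covariate, and the part of the clock in the 74 calls was not tested.

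**Figure D4:**
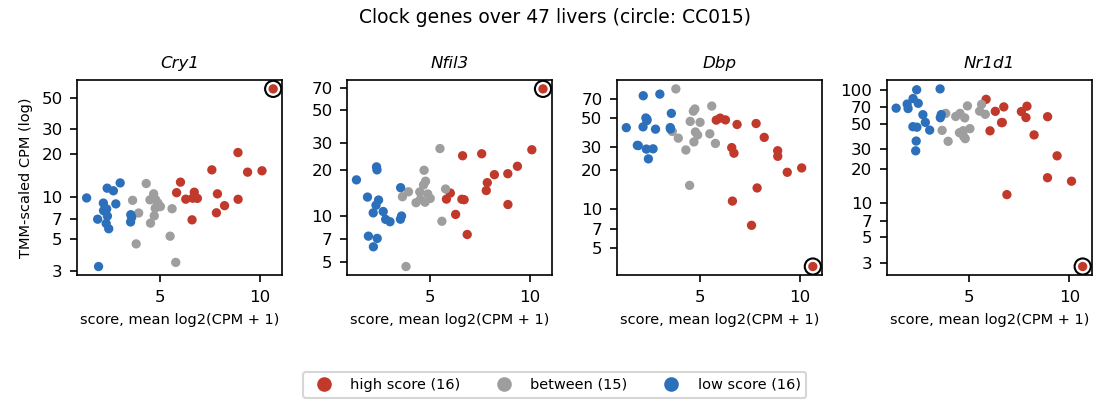
TMM-scaled CPM on a log axis of 4 clock genes against the score in 47 livers, coloured as high (red), between (grey) and low (blue), with CC015 circled. CC015 is at 57.7 for Cry1 and 2.77 for Nr1d1, apart from the other livers, and several further high livers lie low for Dbp.

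Cry1 is the called clock gene whose promoter holds the E-box CACGTG that Clock with Arntl binds. This motif was in 5 of 17 clock promoters in the table (29.4%), Per1, Cry1, Tef, Ciart and Bhlhe41, and in 7.24% of all promoters. The bases before the start site of Cry1, chr10:85185055-85185304 on the minus strand of GRCm38.p6, are printed with the motif in capitals.
Cry1: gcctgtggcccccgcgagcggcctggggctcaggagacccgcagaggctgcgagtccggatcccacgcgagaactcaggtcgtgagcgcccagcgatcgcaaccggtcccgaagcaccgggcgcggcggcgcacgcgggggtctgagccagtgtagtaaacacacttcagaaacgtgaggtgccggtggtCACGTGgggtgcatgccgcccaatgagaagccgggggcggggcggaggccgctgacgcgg

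Genes that growth hormone keeps higher in female liver had a median difference of 0.54 over 14 tested members, 11 of them positive. The list for male liver had -0.17 over 20, 7 of them positive, beside 0.01 and 51.5% positive over all genes. It also holds Igf1, Socs2, Igfals and the growth hormone receptor gene Ghr. At an unadjusted p under 0.05, 1 of the 14 was higher (4.38% of all genes were). Of the 20, 2 were lower at that p (3.2% of all genes were), Igfals and Ghr, and over 47 livers 0 were. The 1 female-biased member called over the score was Cyp17a1, a steroid hydroxylase. It ran from 2.67 over a median of 26.0 to 88.2 in high and from 0.424 over 4.22 to 80.3 in low livers, the groups overlapping almost fully in range although 15 of 16 high livers exceeded the low median. The slope was 0.37 (SE 0.10, q = 0.0957, 0.0470 to 0.250 over 11 alternatives, 0.232 without CC015). Ftcd, an enzyme of histidine breakdown, was the 1 called member among 34 amino acid genes. No high liver exceeded the low median of 551, and its slope was -0.05 (SE 0.01, q = 0.0887). Of 32 fasting, glucose and insulin response genes, none was called, and the median difference was 0.10 with 24 positive. Over 47 livers 27 of the 32 had a positive slope, where 51.1% of all genes did, and 21 did without CC015. Their median slope was 0.04 beside 0.0008 for all genes, and 0.02 without CC015 beside 0.0012. Of the 32, 6 were higher at an unadjusted p under 0.05, where 6.4% of all genes were. Among these 6 were the leptin receptor Lepr and the growth factor binding protein Igfbp1. Without CC015, 3 of the 32 were higher and 1 lower at that p, beside 533 higher and 425 lower of 10211 genes. The lists for drug receptors, bile acids, acute phase, cell cycle and oxidative stress had medians between -0.04 and 0.20 and no member called.

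The kidneys and lungs of the same 32 mice, which the choice of members did not use, show whether the scoring genes differed outside liver too. In kidney Cyp4a14 did. Its level there ran from 3.26 CPM over a median of 26.2 to 232.8 in mice with high livers and from 0.640 over 4.47 to 15.4 in mice with low livers. In 15 of 16 mice with high livers it exceeded the median of the others. The mean log2(CPM + 1) was 4.81 ± 1.996 against 2.60 ± 0.76 (SD, n = 16 each), a difference of 2.20 (permutation test, two-sided, p = 0.00022, adjusted over 4 tests of both genes in both tissues 0.00088), and 2.15 without CC015. Across 47 mice the kidney level followed the liver score with a Pearson r of 0.59 (permutation p = 4e-05) and a Spearman rho of 0.55 (permutation p = 9e-05), adjusted over 4 relations 0.00016 and 0.00036, and r was 0.52 without the 2 mice farthest from the median score. Cyp4a10 in kidney did not follow. Its kidney median was 135 CPM in mice with high livers and 156 in the others, with a difference of -0.05 (permutation p = 0.869), an r of 0.01 and a rho of -0.09 (permutation p = 0.950 and 0.526).

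**Figure D5:**
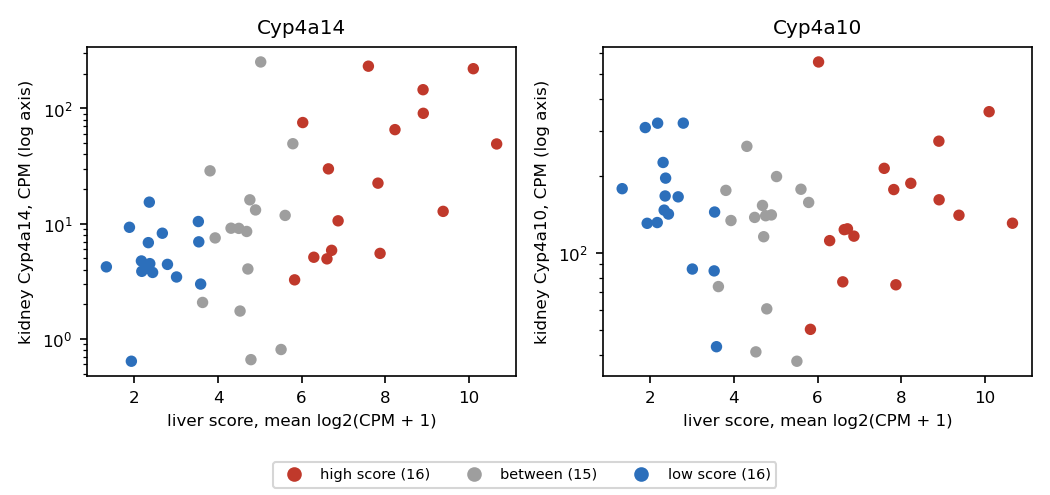
Kidney CPM on a log axis of Cyp4a14 (left) and Cyp4a10 (right) against the liver score of the same mouse, 47 mice, with mice of high livers in red, between in grey and low in blue. Cyp4a14 rises with the liver score (Pearson r 0.59), while Cyp4a10 lies between 42.96 and 555.9 CPM in the mice of both groups (r 0.01).

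Alb, Apoa1, Ttr and Cps1 together had a kidney median of 207.7 CPM in mice with high livers and 213.8 CPM in mice with low livers, beside 90420 CPM in liver. In the fit over 11926 kidney genes the log2 difference of Cyp4a14 was 2.65 (SE 0.72, limma p = 0.000846) but q was 0.9996, and 0 genes were called (0%), with 234 genes higher (1.96%) and 265 lower (2.22%) at an unadjusted p under 0.05. Cyp4a14 was the 1 gene called in kidney by edgeR (log2 3.34, q = 0.00927), by DESeq2 (3.302, q = 1.02e-06) and with the score over 47 mice (slope 0.58, q = 0.00385), while the other alternatives left q between 0.546 and 0.9999. In lung, Cyp4a14 had a median of 0.527 CPM in mice with high livers and 1.26 CPM in the others, and neither Cyp4a14 nor Cyp4a10 passed (permutation p = 0.261 and 0.598). Of 13385 lung genes 0 were called by limma-voom (0%), 0 by edgeR and 1 by DESeq2, with 226 higher (1.69%) and 257 lower (1.92%) at an unadjusted p under 0.05.

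In kidney the 27 tested genes of mitochondrial oxidation had a median log2 difference of 0.00, with 14 positive (48.8% of all kidney genes were) and 0 at an unadjusted p under 0.05, and in lung 26 had a median of 0.02, also with 0. Whether liver differed from kidney or lung was tested per gene with the mouse as a term. No gene passed (0 of 11699 against kidney, 0 of 12883 against lung, 0% each), with 648 (5.54%) and 819 (6.36%) at an unadjusted p under 0.05. By edgeR 0 were called in either. Tmtc2 had the lowest q against kidney, with a liver difference larger by 1.10 (p = 2.11e-05, q = 0.247) and a kidney difference of -0.02 (SE 0.17). Lifr differed from kidney by -0.75 (p = 0.000519, q = 0.845) and from lung by -0.70 (p = 0.00011, q = 0.552).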

How the data were processed

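Total RNA of snap-frozen liver, lung and kidney was depleted of ribosomal RNA and sequenced in single reads of 50 bases. The authors mapped reads to strain-specific pseudo-genomes (Build37, mm9) with RSEM and STAR 2.5.3a and quantified uniquely aligned reads. The deposited tables hold an expected count and a TPM value for each of 24423 genes, and 25 of 3443643 expected counts were not whole and were rounded. TPM served only in 1 alternative score and for levels between genes. Samples were grouped by tissue and strain from the labels, and livers then by the score.

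Genes with at least 1 CPM in 30% of libraries were tested with limma-voom (limma 3.58.1, R 4.3.3) on TMM-scaled counts (edgeR 4.0.16), with Benjamini-Hochberg q at most 0.1 as a call. Comparisons were the 16 high against the 16 low livers, the kidneys and lungs of the same mice, the liver difference against that of each other tissue with the mouse as a term, and the score as a number over 47 livers. Single values were tested with 100000 permutations, two-sided (scipy 1.17.1). DESeq2 1.42.0, edgeR's quasi-likelihood test, other scores, scalings, filters, covariates and sets of libraries were alternatives. The fits were tested on simulated counts. Library totals of 1341632 to 38738025 counts in liver limit the precision of low genes.

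Members and gene lists were chosen with earlier results of these data known. The rule for named genes took the 12 called genes per direction with the smallest p and a mean of at least 5 CPM. It also took the 3 called members per list with the smallest p at any level, the Cyp4a genes, Ppara, Arntl and Dbp, and the genes most like the score. Since the 2-group comparison called none, the rule was applied to the score over 47 livers after this was seen, and only some of the genes it then gave are described. All other genes named, and both printed promoters, were chosen after their values were seen. Each strain is 1 mouse, so strain and mouse cannot be told apart. The study's sequencing batches are not in the labels used here and were not analysed. Some items are not reported here.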

Additional observations from a re-analysis of the deposited data

How the results depend on the processing

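Some livers hold under 3000000 counts, and most calls over the score were lost without CC015. The number of genes called between high and low livers, 0 by limma-voom, was 37 by DESeq2, 1 with Arntl as a covariate, 2 with Cyp4a10 alone as the score, 1 without livers over 30% Lars2 (chosen after seeing the data) and 74 with the score as a number. In kidney 1 gene was called by DESeq2, by edgeR and with the score as a number, and in lung 1 by DESeq2. Over 47 livers, where each alternative was chosen after seeing the data, 74 calls became 7 at q of at most 0.01, 139 by edgeR, 245 by DESeq2, 311 on library totals, 11 by rank, 35 without livers over 30% Lars2, 43 without livers under 3000000 counts and 3 to 103 without any single liver. The causes were not tested.

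With the mouse as replicate block, the tissue comparisons called 0 genes against kidney and 0 against lung, and with no replicate block also 0 and 0. On library totals 1 gene was called in each.

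Ppara (0.01) turned to -0.018 with Cyp4a14 alone as the score, -0.012 with a TMM-scaled score, -0.029 without livers under 3000000 counts, -0.032 with Lars2 out of the score's total, -0.026 without livers over 30% Lars2, -0.020 with no filter and -0.10 with log2 total as a covariate. Cyp4a12a turned to -0.12 with Cyp4a10 alone, Cyp4a12b to 0.0050 with log2 total, Cyp4a32 to 0.084 by edgeR, 0.0750 by DESeq2 and 0.067 with log2 total, and Fabp1 to 0.13 on library totals. Kidney Cyp4a14 was called by edgeR (3.34), DESeq2 (3.302) and over the score (0.58). Kidney Cyp4a10 (0.025 in the limma fit) turned to -0.22 with 12 against 12 mice, -0.038 with 23 against 23, -0.10 with either gene alone as the score, -0.082 with Lars2 out of the score's total, -0.050 on library totals and -0.14 with quality weights. None of the 38 genes was called between the groups. Of 683 alternatives for them, 658 kept direction and stayed not called, 12 gained a call and 13 reversed. Of 1566 for 27 slopes, 1339 kept direction and call and 227 lost the call in the same direction. For each slope 47 of the alternatives leave out only 1 liver and so nearly repeat the fit. The medians of 19 lists moved by less than the spread between libraries in 342 of 342, but 19 of the 342 changed sign, in 6 lists with medians between -0.19 and 0.07.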
